A study of Mus musculus with 6 samples.

Results

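The Fc gamma receptors Fcgr1, Fcgr2b, Fcgr3 and Fcgr4 and the CD300 receptors Cd300a, Cd300e, Cd300lb, Cd300ld and Cd300lf were examined, 9 of the 24421 genes in the count table. They were selected by family membership with the DEK against vehicle results of these libraries in view, so their differences between the groups are given as a description, without p-values. All 9 passed the filter on low counts that left 13803 genes. By their known signalling, 6 were classed as activating (Fcgr1, Fcgr3, Fcgr4, Cd300e, Cd300lb and Cd300ld) and 3 as inhibitory (Fcgr2b, Cd300a and Cd300lf).

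The libraries came from femur marrow of Dek -/- C57BL/6 mice after lineage depletion, in which columns hold back cells that carry markers of mature blood lineages. Dek encodes a chromatin protein that myeloid cells can also release. Marrow cells received either vehicle or DEK protein supplied from outside, and each treatment had 3 libraries of polyadenylated RNA, numbered 1 to 3. Both groups carried the Dek knockout, no wild-type library was analysed here, and the labels give neither the age of the mice nor the dose, duration or source of the protein. They do not say whether libraries came from separate animals, so p-values given for other genes measure only the spread between these libraries.

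Fc gamma receptors bind the constant part of IgG antibodies on myeloid and some lymphoid cells, while CD300 receptors recognise lipids exposed on dying or activated cells and other ligands. Activating members signal through partner chains with an activation motif, the Fc receptor gamma chain (Fcer1g) or DAP12 (Tyrobp), which recruit the kinase Syk after Src-family kinases phosphorylate them. Inhibitory members carry their own inhibitory motif, an ITIM, in the cytoplasmic tail, where its phosphorylated tyrosine recruits phosphatases such as SHIP1 (Inpp5d) and SHP-1 (Ptpn6).

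The coding sequences show this division, and the ITIM stretches are printed because they separate the classes compared here. The motif was searched as codons for serine, isoleucine, valine or leucine, then any residue, tyrosine, any pair of residues, and isoleucine, valine or leucine, downstream of the last membrane stretch predicted from hydropathy in the longest GENCODE M21 coding sequence (GRCm38). The tyrosine codon is in capitals.
Fcgr2b codons 317 to 322: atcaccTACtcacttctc
Cd300a codons 260 to 265: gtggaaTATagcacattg
Cd300a codons 272 to 277: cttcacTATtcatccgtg
Cd300lf codons 239 to 244: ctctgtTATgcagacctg
Cd300lf codons 287 to 292: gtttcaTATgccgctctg

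Fcgr2b thus had 1 such stretch in a predicted tail of 89 codons, Cd300a had 2 in 108 codons and Cd300lf had 2 in 117 codons. None of the 6 activating members had one, with predicted tails from 2 codons in Cd300e to 84 codons in Fcgr1. The pattern is loose: of 7339 genes with a predicted membrane stretch, 1919 (26.1%) held it downstream of the last such stretch. A match is a description of the letters and not evidence of a working motif.

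Sequence between members bears on the counting, since reads from near-identical stretches can be assigned to either gene or lost. Of the 50-base stretches in Fcgr3 exons, 9.58% were also found in Fcgr2b. In the CD300 cluster, 3.89% of Cd300ld stretches were shared with Cd300lf or with the neighbouring Cd300ld copies, and 1.91% of Cd300lf stretches with those genes. Fcgr1, Fcgr4, Cd300e and Cd300lb shared 0% with their family. No member's exons overlapped those of another gene in the table.

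Depth ran from 34875736 to 49128378 counts per library, and the members together took between 0.112% and 0.187% of them. Dek had 672 to 863 counts with vehicle and 712 to 869 with DEK, and since the labels do not say which part of the gene was deleted, a count over the whole gene does not check the knockout. Replicate 3 stood apart in both groups. Of 12 neutrophil markers 11 had a row, all detected in every library, and their summed share was 0.656% to 0.876% in the libraries numbered 1 and 2 but 6.53% (vehicle) and 5.83% (DEK) in those numbered 3. Monocyte markers (12 of 12 detected) took 0.665% and 0.682% in the libraries numbered 3, against 0.856% to 1.16% elsewhere, and macrophage markers (12 of 12 detected) took 0.114% and 0.0951%, against 0.128% to 0.156%. Eosinophil markers (9 of 9 detected) took 0.456% and 0.305%, against 0.841% to 1.45%, and basophil and mast cell markers (8 of 9 detected in every library) 0.150% and 0.178%, against 0.239% to 0.372%. B cell markers (8 of 8 detected) took 0.00944% and 0.0107%, against 0.0252% to 0.0300%. Erythroid markers, 3 of 8 of which were at 0 in every library, took 0.188% and 0.275%, against 0.0699% to 0.0951%. Progenitor markers (10 of 10 detected) took 0.0650% and 0.0573%, against 0.0998% to 0.123%. The neutrophil, monocyte, macrophage and eosinophil markers above show that genes of mature myeloid cells were present in the lineage-depleted marrow. In bulk RNA, more cells of a type and more RNA per cell cannot be told apart.

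Without regard to replicate number, edgeR's quasi-likelihood test called 0 of 13803 genes (0% called) at an adjusted p under 0.05, and none of the members. At an unadjusted p under 0.05 there were 360 genes, 0 of them members, while DESeq2 called 51 genes and limma-voom 0. With the replicate number as a block, edgeR called 177 genes (1.28% called), 120 higher in DEK (0.869% called) and 57 lower (0.413% called). Cd300e was the only member among them. Values within pairs below compare libraries of equal number.

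Fcgr1 (chromosome 3, 96282909 to 96293969, minus strand, mm10) encodes the high-affinity IgG receptor. Its level was 16.2, 17.4 and 46.8 CPM (reads per 1e6 counted) in vehicle replicates 1, 2 and 3 and 12.1, 21.3 and 97.4 CPM in DEK replicates 1, 2 and 3, from 540 to 4210 reads. The libraries numbered 3 were highest in both groups, the groups overlapped, and the DEK libraries held both the lowest and the highest value. The fitted log2 difference, DEK minus vehicle, was 0.70 ± 0.85 (SE), and within pairs it was -0.42, 0.29 and 1.06. Without both libraries numbered 3 it was -0.01.

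Fcgr3 (chromosome 1, 171051169 to 171059403, minus strand), the low-affinity activating receptor for IgG complexes, was the most abundant of the activating Fc gamma receptors. It stood at 405, 486 and 582 CPM in vehicle replicates 1 to 3 and at 351, 331 and 603 CPM in DEK replicates 1 to 3. DEK replicates 1 and 2 lay below all vehicle libraries, whereas DEK replicate 3 lay above them. The log2 difference was -0.20 ± 0.27 (SE), and the pairs differed by -0.20, -0.55 and 0.05.

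Fcgr4 (chromosome 1, 171018926 to 171029761, plus strand) encodes an activating receptor that binds IgG2a and IgG2b. Vehicle replicates 1, 2 and 3 held 11.7, 12.1 and 58.6 CPM, and DEK replicates 1, 2 and 3 held 10.9, 9.28 and 142 CPM. DEK replicate 3 alone had 6145 reads of this gene, against 471 to 576 in the 4 libraries numbered 1 and 2. The fitted difference was 0.98 ± 1.23 (SE) on the log2 scale, it was -0.23 without both libraries numbered 3, and the pairs differed by -0.09, -0.38 and 1.28. The positive value therefore rested on the libraries numbered 3.

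Fcgr2b (chromosome 1, 170960559 to 170976071, minus strand) is the inhibitory Fc gamma receptor. Its vehicle libraries held 290, 319 and 356 CPM and its DEK libraries 277, 236 and 269 CPM in replicates 1, 2 and 3. It was the only member whose groups did not overlap (1 of 9, beside 7.19% of all genes tested, called by that rule), with every DEK library below every vehicle library. The mean was 322 ± 32.9 CPM (SD, n = 3) in vehicle and 261 ± 21.6 CPM (SD, n = 3) in DEK, a log2 difference of -0.30 ± 0.13 (SE), or 1.23-fold lower. The pairs differed by -0.07, -0.43 and -0.40. Leaving out any single library or replicate number, or changing the tool or scaling, kept the value between -0.42 and -0.22. Eosinophil markers were also lower with DEK in each pair, at 1.45%, 1.36% and 0.456% of counts in vehicle replicates 1 to 3 and 1.18%, 0.841% and 0.305% in DEK replicates 1 to 3, with 0 of 9 genes above 0 and 2 that fell within pairs (Epx and Prg3). Macrophage markers had a median log2 difference of -0.55, with 2 of 12 above 0 and 3 that fell within pairs. Summed shares of macrophage, progenitor, megakaryocyte and platelet, and T and NK cell markers were likewise lower with DEK in each pair. Without the block, 0 of 10 progenitor and 0 of 6 megakaryocyte and platelet genes lay above 0. The shares of the other marker lists were not lower in every pair. The part of any of these markers in the Fcgr2b values was not tested.

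Cd300e (chromosome 11, 115051917 to 115062038, minus strand) is a monocyte receptor whose human form signals through DAP12. It was the scarcest member, at 0.284, 0.725 and 1.13 CPM in vehicle replicates 1 to 3 and at 0.737, 1.97 and 3.49 CPM in DEK replicates 1 to 3, from 14, 29 and 38 reads in vehicle and 33, 100 and 151 in DEK. The groups overlapped, since DEK replicate 1 lay below vehicle replicate 3, yet within each number the DEK library was higher, by 1.25, 1.39 and 1.59 on the log2 scale. The fitted difference was 1.54 ± 0.71 (SE, 2.92-fold) without the block and 1.49 ± 0.31 (SE, 2.81-fold) with it. It was the largest difference of any member under both fits. Its call with the block was lost when any 1 replicate number was left out, while its difference within the remaining pairs stayed between 1.41 and 1.53. With replicate 2 left out 0 genes were called, and with replicate 3 left out 641 were (4.64% called), Cd300a being the only member among them. Of 12 monocyte markers 3 passed as higher within pairs and 0 as lower. Those that rose were Ly6c2 by 0.50, Cx3cr1 by 0.63 and Nr4a1 by 0.90 on the log2 scale (adjusted p = 0.038, 0.0083 and 0.018, edgeR with the block). Of all 12, 8 lay above 0 within pairs, with a median of 0.12. The medians in pairs 1, 2 and 3 were 0.26, 0.17 and -0.05. The summed share of the 12 was 0.665% to 0.988% in vehicle and 0.682% to 1.16% in DEK. The part of these markers in the Cd300e values was not tested.

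Cd300lb (chromosome 11, 114922781 to 114934386, minus strand), an activating receptor that signals through DAP12, was the most abundant CD300 transcript per length. Vehicle replicates 1, 2 and 3 held 237, 258 and 319 CPM, and DEK replicates 1, 2 and 3 held 217, 187 and 353 CPM. As for Fcgr3, the DEK libraries numbered 1 and 2 lay below the vehicle group and the DEK library numbered 3 above it. The log2 difference was -0.11 ± 0.26 (SE), with pairs at -0.13, -0.46 and 0.14.

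Cd300ld (chromosome 11, 114982446 to 114989886, minus strand) is an activating receptor that uses the Fc receptor gamma chain. Its levels were 30.6, 26.5 and 107 CPM in vehicle replicates 1 to 3 and 33.6, 33.8 and 133 CPM in DEK replicates 1 to 3. Each DEK library lay above the vehicle library of equal number, by 0.13, 0.35 and 0.32 on the log2 scale. The fitted difference was 0.29 ± 0.77 (SE) without the block and 0.27 ± 0.096 (SE) with it. The groups overlapped because vehicle replicate 3 exceeded DEK replicates 1 and 2.

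Cd300a (chromosome 11, 114890041 to 114904651, plus strand), an inhibitory receptor for phosphatidylserine and phosphatidylethanolamine, had 330, 332 and 227 CPM in vehicle replicates 1 to 3. In DEK it was at 233, 231 and 231 CPM, a spread far smaller than in vehicle (232 ± 1.32 against 296 ± 60.0 CPM, SD, n = 3). Vehicle replicates 1 and 2 lay above all DEK libraries, and vehicle replicate 3 just below them. The log2 difference was -0.35 ± 0.17 (SE), with pairs at -0.50, -0.52 and 0.03. It was the only member for which replicate 3 was lowest within the vehicle group. Basophil and mast cell markers took 0.348%, 0.372% and 0.150% of counts in vehicle replicates 1 to 3 and 0.277%, 0.239% and 0.178% in DEK replicates 1 to 3. Their summed share was thus lower with DEK in pairs 1 and 2 and higher in pair 3. Their median log2 differences were -0.34, -0.64 and -0.0005, so the median did not rise in pair 3. None of their 7 genes tested passed within pairs. Medians below 0 in pairs 1 and 2 and above 0 in pair 3 were found for other lists. These were progenitor (-0.13, -0.24, 0.07), dendritic cell (-0.10, -0.13, 0.19), B cell (-0.06, -0.24, 0.32), T and NK cell (-0.09, -0.15, 0.17) and erythroid (-0.03, -0.33, 0.73) markers. By summed share these lists did not show it. Dendritic cell shares were higher with DEK in all 3 pairs, and progenitor and T and NK cell shares were lower in all 3. B cell and erythroid shares were higher in pairs 1 and 3 and lower in pair 2. The remaining lists did not show it by median. The eosinophil share, given above, was lower with DEK in all 3 pairs. The part of any of these lists in the Cd300a values was not tested.

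Cd300lf (chromosome 11, 115116214 to 115133992, minus strand) encodes an inhibitory receptor also known as the entry receptor of murine norovirus. Vehicle replicates 1, 2 and 3 held 35.2, 32.3 and 192 CPM, and DEK replicates 1, 2 and 3 held 22.8, 29.3 and 251 CPM. Both libraries numbered 3 stood far above the rest, and the groups overlapped. The log2 difference was 0.23 ± 1.14 (SE) without the block and -0.12 ± 0.19 (SE) with it, and the pairs differed by -0.62, -0.14 and 0.39.

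**Figure D1:**
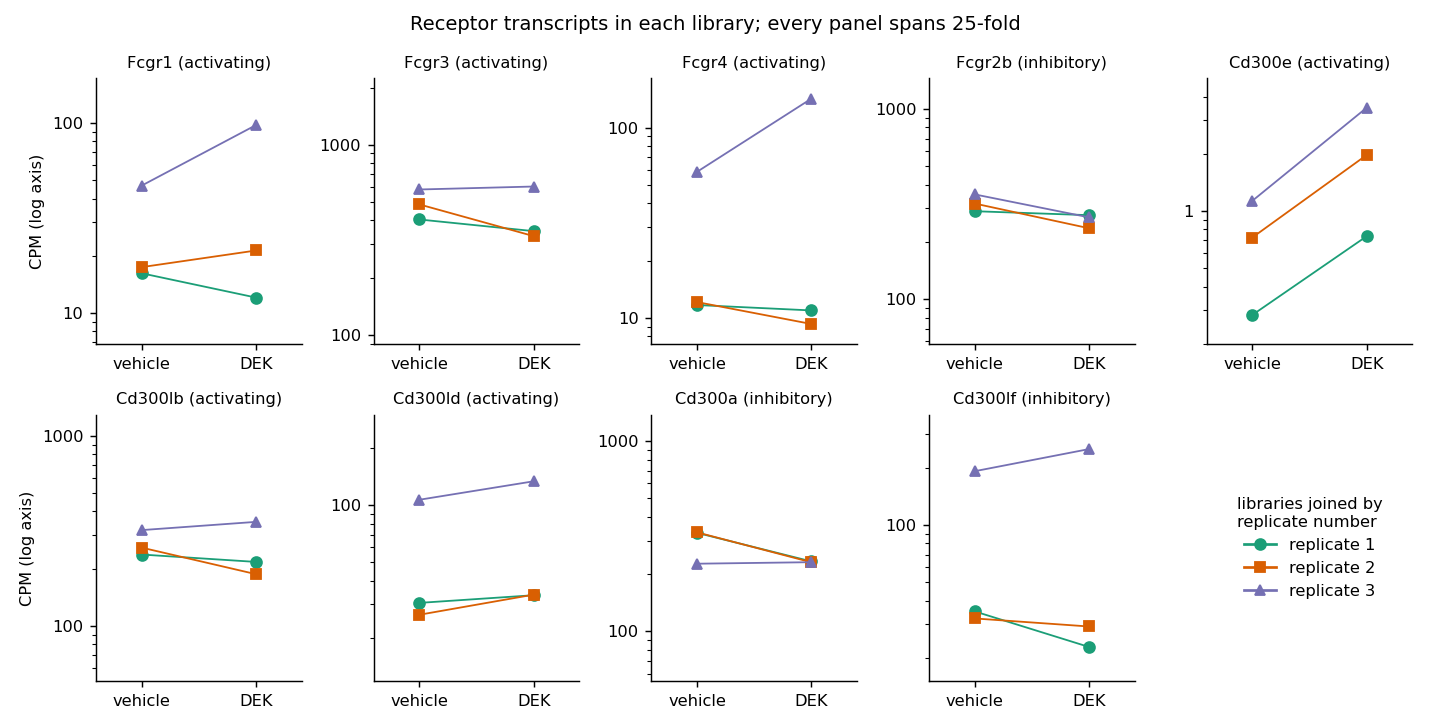
Level of each receptor transcript (CPM, log axis, every panel spanning the same fold range) in vehicle and DEK libraries, with lines joining libraries of equal replicate number. Cd300e lines all slope upward, Fcgr2b lines all slope downward, and replicate 3 stands above the other libraries for Fcgr1, Fcgr4, Cd300ld and Cd300lf.

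Levels between genes were compared per kilobase of exon. In vehicle the order was Fcgr3 (363 ± 65.6 CPM per kb, SD, n = 3), Fcgr2b (208 ± 21.3), Cd300lb (94.3 ± 14.8), Cd300a (63.8 ± 12.9), Cd300lf (45.9 ± 48.5), Cd300ld (22.4 ± 18.5), Fcgr4 (22.0 ± 21.6), Fcgr1 (10.4 ± 6.69) and Cd300e (0.366 ± 0.217). Fcgr3, Fcgr2b and Cd300lb each lay clear of the next gene, and Cd300e lay clear of Fcgr1. Neighbours from Cd300a down to Fcgr1 overlapped in their ranges. In DEK the order began with Fcgr3 (317 ± 112 CPM per kb), Fcgr2b (169 ± 14.0) and Cd300lb (87.6 ± 30.6) and again ended with Cd300e (1.06 ± 0.709). Neighbours from Cd300lb down to Fcgr1 overlapped there.

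The question posed of these genes was whether activating and inhibitory receptors shifted in different directions. Without the block, 4 of the 6 activating members lay above 0 (Fcgr1, Fcgr4, Cd300e and Cd300ld) and 1 of the 3 inhibitory members did (Cd300lf). The median log2 difference was 0.50 for the activating members and -0.30 for the inhibitory members, beside 0.0018 for all genes tested. Within pairs the medians were 0.28 and -0.30, beside -0.0028 for all genes. In pairs 1, 2 and 3 taken singly the activating median was -0.11, -0.05 and 0.69, so it lay above 0 in pair 3 only, and the inhibitory median was -0.50, -0.43 and 0.03. The direction within each pair depended on its number: 2 of 9 members were higher in DEK in pair 1, 3 of 9 in pair 2 and 8 of 9 in pair 3. All 6 activating members were higher in pair 3, against 2 in pair 1 and 3 in pair 2. The inhibitory members were lower in all 3 cases in pairs 1 and 2, and 2 of the 3 were higher in pair 3.

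**Figure D2:**
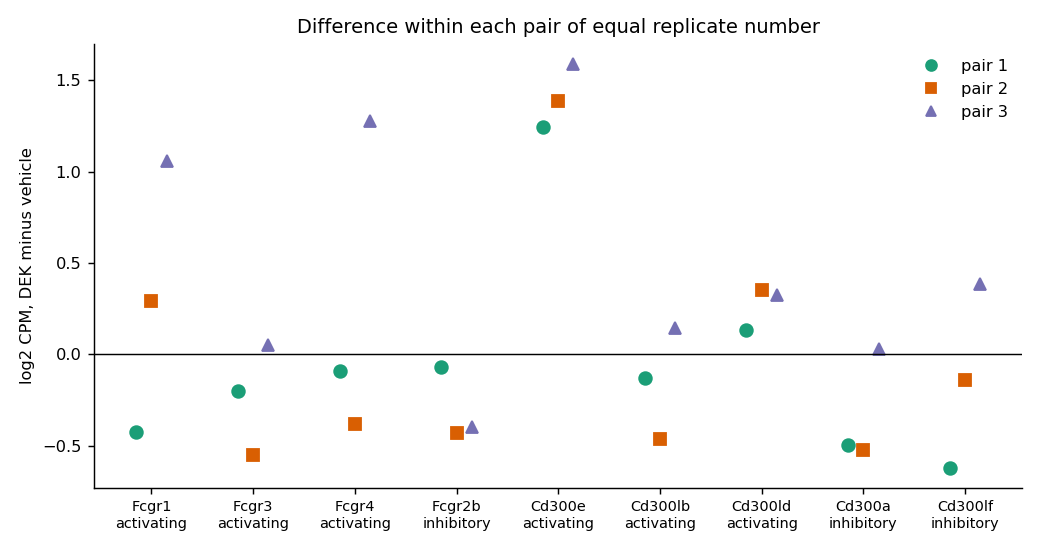
Difference in log2 CPM, DEK minus vehicle, within each pair of equal replicate number for the 9 receptors. Pair 3 lies above 0 for every receptor except Fcgr2b, and Cd300e lies above 1 in all 3 pairs.

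The balance between the classes was summarised as the mean log2 CPM of the activating members minus that of the inhibitory members, so that only its change between libraries carries meaning. For all 9 genes it was -2.65, -2.40 and -1.98 in vehicle replicates 1 to 3 and -2.17, -1.93 and -1.24 in DEK replicates 1 to 3. The groups overlapped, because DEK replicate 1 lay below vehicle replicate 3, and the balance was higher with DEK in each pair, by 0.48, 0.47 and 0.74. The mean shift toward activating members was 0.56, against a pooled SD of 0.42 between libraries.

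The 2 families differed in which pair carried this shift. For the Fc gamma receptors the balance was -2.77, -2.76 and -1.61 in vehicle replicates 1 to 3 and -2.94, -2.55 and -0.41 in DEK replicates 1 to 3. Its pairs differed by -0.17, 0.22 and 1.20, so the mean shift of 0.41 (pooled SD 1.07) came mainly from pair 3. It was 0.02 without both libraries numbered 3 and -0.36 without DEK replicate 3 alone. For the CD300 receptors the balance was -3.01, -2.57 and -2.61 in vehicle replicates 1 to 3 and -2.03, -1.82 and -2.13 in DEK replicates 1 to 3. Here every DEK library lay above every vehicle library, the mean shift was 0.74 (pooled SD 0.21), and pair 3 gave the smallest difference, at 0.48 against 0.98 and 0.76.

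Much of the CD300 shift came from Cd300e, which weighs as much as any abundant member in a mean of log values. Without Cd300e, an alternative chosen after the data were seen, the CD300 balance moved by 0.29 (pooled SD 0.15), with pairs at 0.56, 0.28 and 0.03. For all members without Cd300e the shift was 0.34 (pooled SD 0.43), with pairs at 0.25, 0.21 and 0.57. Each pair kept a positive sign in both cases, and the CD300 groups still did not overlap.

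**Figure D3:**
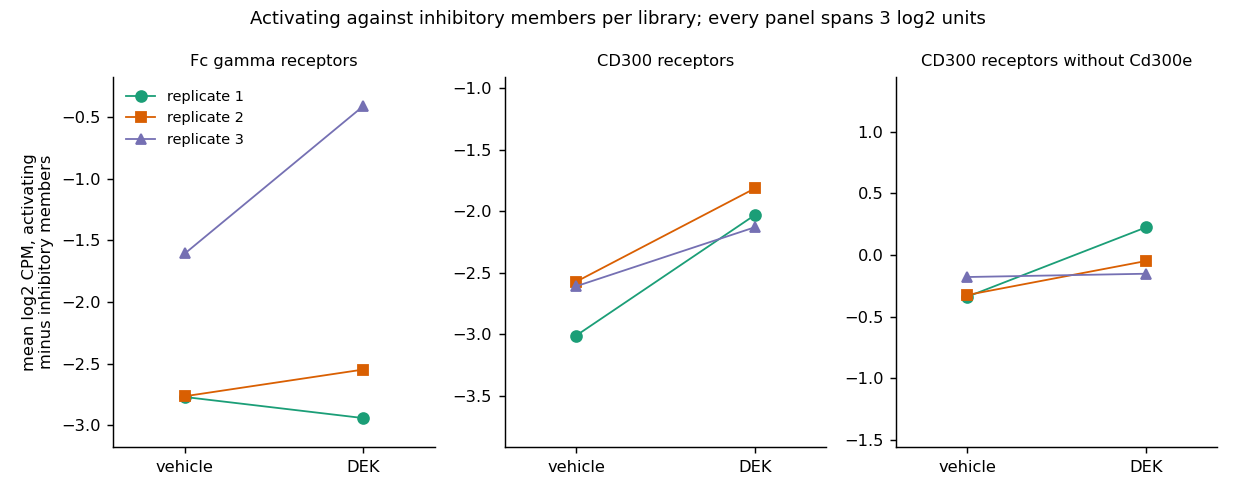
Mean log2 CPM of activating minus inhibitory members in each library, for the Fc gamma receptors, the CD300 receptors and the CD300 receptors without Cd300e, each panel spanning 3 log2 units. The Fc gamma balance is higher with DEK mainly in pair 3, and the CD300 groups do not overlap with Cd300e or without it.

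Summed per kilobase, where abundant genes weigh most, the shift was smaller than its spread. Activating Fc gamma transcripts outnumbered Fcgr2b by 1.68, 1.82 and 2.15 to 1 in vehicle replicates 1 to 3 and by 1.53, 1.70 and 3.43 to 1 in DEK replicates 1 to 3. The mean ratio was 1.88 ± 0.243 in vehicle and 2.22 ± 1.05 in DEK (SD, n = 3), and the DEK libraries held both the lowest and the highest. Fcgr2b made up 37.4%, 35.4% and 31.7% of Fc gamma transcripts per kilobase in vehicle replicates 1 to 3. In DEK replicates 1 to 3 it made up 39.6%, 37.0% and 22.6%. Activating to inhibitory CD300 transcripts stood at 1.08 ± 0.0562 in vehicle and 1.21 ± 0.229 in DEK, with DEK replicate 3 lowest of all 6 libraries at 0.978. The 2 summaries thus agree on the sign of the mean shift and differ in its size. Within pairs they did not always share a sign. From vehicle to DEK, the Fc gamma ratio fell in pair 2 (1.82 to 1.70) while its log2 balance rose by 0.22. The CD300 ratio fell in pair 3 (1.03 to 0.978) while its log2 balance rose by 0.48. For all members the ratio fell in pair 2 (1.62 to 1.56) while the log2 balance rose by 0.47. Signs matched in the other pairs. The higher Fc gamma mean in DEK rested on replicate 3, as the ratio fell in pairs 1 and 2.

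For 6 of the 9 members (Fcgr1, Fcgr3, Fcgr4, Cd300lb, Cd300ld and Cd300lf), replicate 3 differed from replicates 1 and 2 in both groups by more than the fitted difference between DEK and vehicle. In vehicle it was highest for 8 of the 9 genes and in DEK for 7 of 9. Fcgr4 was 4.91-fold higher in vehicle replicate 3 than in the mean of vehicle replicates 1 and 2, and 14.1-fold higher in DEK replicate 3 than in the mean of DEK replicates 1 and 2. For Cd300lf the same folds were 5.69 in vehicle and 9.69 in DEK. For Fcgr1 they were 2.78 and 6.06. Fcgr2b differed by 0.23 in vehicle and 0.08 in DEK on the log2 scale. Cd300a went the other way in vehicle, where replicate 3 was lower by a log2 difference of -0.54, and differed by -0.01 in DEK. The neutrophil marker share was 6.53% and 5.83% in the libraries numbered 3 and at most 0.876% elsewhere, while monocyte and macrophage shares were lower there. The part of these markers in the receptor values was not tested.

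**Figure D4:**
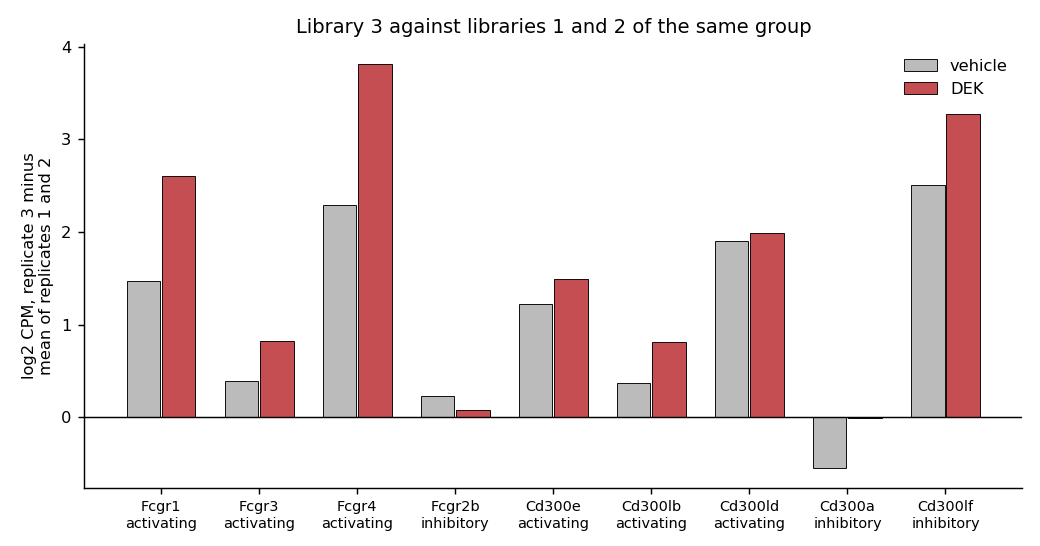
Log2 CPM of replicate 3 minus the mean of replicates 1 and 2 within the vehicle group and within the DEK group, for each receptor. Fcgr4 and Cd300lf stand highest in both groups, while Fcgr2b and Cd300a lie near or below 0.

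Members also differed in how they moved together over the 6 libraries, which share the treatment, the replicate number and the neutrophil share. Pearson's r of log2 CPM was 0.98 for Fcgr3 with Cd300lb, 0.98 for Fcgr4 with Cd300lf and 0.97 for Cd300ld with Cd300lf. The lowest was -0.72, for Cd300e with Cd300a. Over the 12108 genes averaging 1 CPM or more, those most like Cd300e were Ms4a6d (0.991), Tmem134 (0.989), Vamp8 (0.988), Gpr15 (0.987) and Cpsf3l (0.983). Those most like Fcgr2b were Gnptg (0.997), 4930577N17Rik (0.991), Lifr (0.986), Tdp2 (0.985) and Ccdc138 (0.985). With 6 points these values describe a ranking only.

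Upstream sequences are printed for Fcgr1 and Fcgr4, the Fc gamma receptors with the largest folds of replicate 3 over replicates 1 and 2, and for Cd300e, the member with the largest difference. Each is the 250 bases before the RefSeq start (GRCm38.p6), 5′ to 3′ on the gene's strand, with matches in capitals. Fcgr1 lies at chr3:96293970-96294219 (minus), Fcgr4 at chr1:171018676-171018925 (plus) and Cd300e at chr11:115062040-115062289 (minus).
Fcgr1: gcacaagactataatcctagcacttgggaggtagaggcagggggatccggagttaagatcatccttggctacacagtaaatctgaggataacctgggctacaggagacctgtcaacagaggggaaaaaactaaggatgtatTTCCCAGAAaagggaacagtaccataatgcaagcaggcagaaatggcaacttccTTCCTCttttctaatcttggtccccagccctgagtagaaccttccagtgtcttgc
Fcgr4: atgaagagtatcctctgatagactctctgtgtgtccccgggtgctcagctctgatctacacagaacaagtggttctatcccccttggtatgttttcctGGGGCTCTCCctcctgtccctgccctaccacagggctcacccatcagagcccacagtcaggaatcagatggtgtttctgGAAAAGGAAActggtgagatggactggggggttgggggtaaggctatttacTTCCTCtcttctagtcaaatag
Cd300e: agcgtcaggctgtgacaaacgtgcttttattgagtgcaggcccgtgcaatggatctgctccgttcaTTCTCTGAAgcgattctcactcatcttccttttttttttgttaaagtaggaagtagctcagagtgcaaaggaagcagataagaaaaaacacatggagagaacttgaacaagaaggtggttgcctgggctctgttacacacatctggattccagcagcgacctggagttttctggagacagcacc

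The letters searched on both strands were GAGGAA for PU.1, a myeloid transcription factor, TTCNNNGAA for the interferon-gamma element GAS, GAAA repeated after any 2 bases for the interferon element ISRE, TGANTCA for AP-1, TTGCNNAA for C/EBP, and the NF-kB motif. In the 3 windows printed, no match overlapped one of another motif. Fcgr1 held a GAS match from -109 to -101 and a PU.1 match from -55 to -50, counted from the start. Fcgr4 held matches for NF-kB from -152 to -143, ISRE from -73 to -64 and PU.1 from -22 to -17. Cd300e held a GAS match from -184 to -176. The shares of all 32851 promoters of this length with a match were 23.3% for PU.1, 7.02% for GAS, 2.98% for ISRE and 3.90% for NF-kB, 6.75% for AP-1 and 9.56% for C/EBP. PU.1 letters were present upstream of 6 of the 9 members (Fcgr1, Fcgr3, Fcgr4, Cd300a, Cd300ld and Cd300lf), while Fcgr2b and Cd300lb held none of the 6 motifs. These matches were not tested for binding.

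Neither the partner chains Fcer1g and Tyrobp nor a further adaptor, Hcst, passed the test within pairs (0 of 3). Fcer1g stood at 743 CPM in vehicle and 757 CPM in DEK, a log2 difference within pairs of 0.03. Tyrobp stood at 1411 and 1280 CPM (-0.14), and Hcst, the DAP10 adaptor, at 28.2 and 27.3 CPM (-0.08). Downstream of them, 1 of 17 genes of activating signalling rose within pairs, none fell and 16 did not pass, with a median log2 difference of 0.065. That is 5.88% called, beside 1.28% of all genes tested. The signalling lists, too, were chosen with earlier results of these libraries known. The gene that rose was Fgr, a Src-family kinase. It was at 199.9, 199.7 and 374 CPM in vehicle replicates 1 to 3 and 274, 354 and 475 CPM in DEK replicates 1 to 3, and the groups overlapped because vehicle replicate 3 exceeded DEK replicates 1 and 2. Its log2 difference within pairs was 0.54 ± 0.11 (SE, adjusted p = 0.033, edgeR with the replicate block), higher in 3 of 3 pairs. Of 12 genes of inhibitory signalling 0 passed, with a median of 0.10, and the smallest p-values were those of Cbl (0.22, adjusted p = 0.453) and Pag1 (0.19, adjusted p = 0.522). With the block, Fgr did not pass without replicate 1 or without replicate 2. Without the block, 0 of these 32 genes passed.

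Other receptors of the same classes were counted. Their lists were chosen with earlier results of these libraries known, so calls and p-values here are a description and not independent support. Of the other Fc receptors, 0 of 12 tested passed within pairs (median 0.030), and those with the smallest p-values were the neonatal receptor Fcgrt (-0.37, adjusted p = 0.133) and the IgE receptor chain Fcer1a (-0.38, adjusted p = 0.241). Without replicate 3, Fcer1a passed as lower without the block, and Fcer1a and Ms4a2, another IgE receptor chain, passed as lower with it. Of the other CD300 genes, 2 of 7 had a row in the table, Cd300c (-0.05) and Cd300lg (-0.35), and neither passed. Among 21 activating myeloid receptors outside these families, 4 rose and 1 fell within pairs, with a median of 0.41. That is 23.8% called, beside 1.28% of all genes tested, in a list not chosen blind to the results. Clec4e (Mincle, a glycolipid receptor that uses the Fc receptor gamma chain) rose by 1.36 ± 0.12 (SE, adjusted p = 0.000618, edgeR with the block), from 125 to 185 CPM in the vehicle libraries to 350 to 452 CPM in the DEK libraries. Clec5a (0.59, adjusted p = 0.020), Sirpb1a (0.64, adjusted p = 0.025, uncertain because of near-identical copies) and Trem1 (0.53, adjusted p = 0.034), which use DAP12, also rose. Trem2, a lipid receptor of macrophages that uses DAP12 as well, fell by 1.25 on the log2 scale (adjusted p = 0.013), as did 3 of 12 macrophage markers, C1qb by 1.58, C1qc by 1.15 and Mertk by 2.10 (adjusted p = 0.011, 0.034 and 0.013). The summed macrophage share was 0.114% to 0.156% in vehicle and 0.0951% to 0.135% in DEK, and its part in the Trem2 value was not tested. Among 24 inhibitory receptors outside these families 0 passed within pairs (median -0.035), the smallest p-values being those of Cd200r1 (-0.53, adjusted p = 0.061) and Pirb (0.39, adjusted p = 0.074, uncertain because of the near-identical Pira genes). The difference between the 2 receptor lists was not tested, and without the block 0 genes passed in each. Without replicate 1, with the block, Clec4e and Trem1 passed and Clec5a, Sirpb1a and Trem2 did not. Without replicate 3, with the block, Trem1 no longer passed, 6 activating receptors were higher and 3 lower, and 2 inhibitory receptors were higher and 2 lower, while without replicate 2 none passed in either list.

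**Figure D5:**
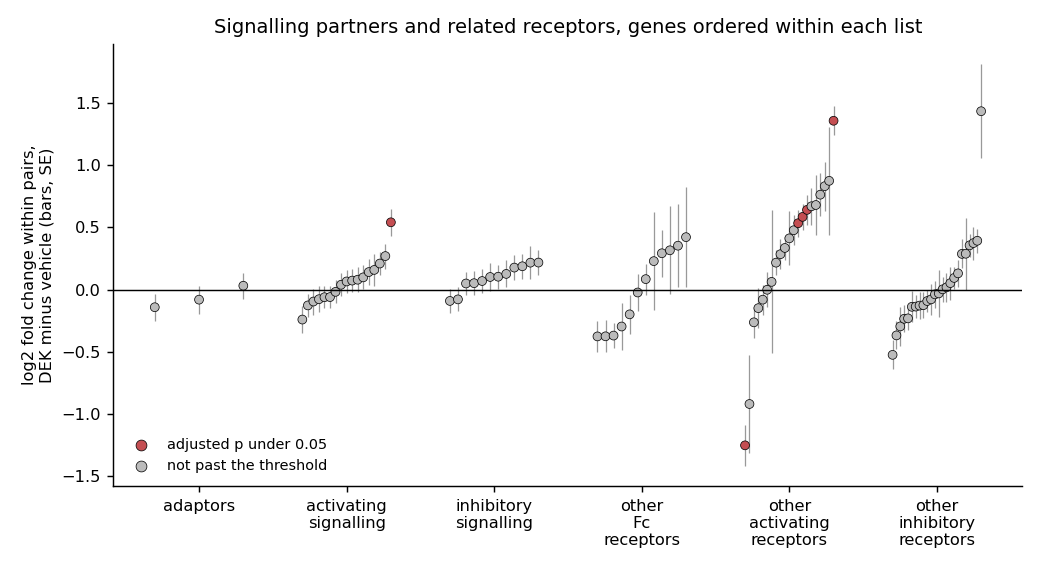
Log2 fold change within pairs (DEK minus vehicle, bars SE) for signalling partners and related receptors outside the 9 genes, ordered within each list, with genes at an adjusted p under 0.05 in red. Called genes lie among activating signalling (Fgr) and other activating receptors (4 higher and 1 lower).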

How the data were processed

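The authors deposited 1 table of raw read counts per gene for 3 vehicle and 3 DEK libraries. Per the file headers, featureCounts 1.6.1 summed exon reads per gene on mm10, from lane 6, with no option for strand, pairs or overlapping genes. Trim Galore, STAR, HTSeq and edgeR are listed in the submitters' processing notes, so notes and header name different counters. Libraries were strand-specific and selected for polyadenylated RNA, per the labels' protocols.

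Analysis used R 4.3.3, edgeR 4.0.16, limma 3.58.1 and DESeq2 1.42.0. Counts were filtered with filterByExpr (13803 of 18049 genes with a read) and scaled by TMM. The comparison was edgeR's quasi-likelihood test, two-sided, without a block, with Benjamini-Hochberg adjustment over all genes and a threshold of 0.05. It was also run on simulated counts, set to a smaller spread between libraries than this fit without the block. That run does not measure the power to find changes in these libraries. Standard errors come from the F statistic, and log2 CPM used a prior count of 2. The members and gene lists were chosen with earlier results of these data known. Named genes are all members, Dek, the called genes of each list (otherwise the 2 with the smallest p) and the 5 genes most like Cd300e and Fcgr2b. The receptor pairs correlated were named after their values were seen.

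Pairing was checked by the correlation across genes of deviations from the group mean. It was 0.55, 0.56 and 0.80 for equal replicate numbers, above the minimum of 0.1, so the numbers were taken as pairs, though the labels state no shared animal or day. Unequal numbers reached 0.52 (vehicle 2 with DEK 1) and 0.41 (vehicle 1 with DEK 2), which also exceed the minimum. Number 3 with number 1 or 2 ran from -0.69 to -0.59. The check therefore set number 3 apart but could not tell numbers 1 and 2 from each other. Calls with the block rest on the numbering there. Alternatives were the block, DESeq2, limma-voom, other scaling, no filter, another prior count and leaving out libraries. Promoters are RefSeq's (GRCm38.p6) and coding sequences GENCODE's. Membrane stretches were called from the translated coding sequences, with a hydropathy window of 19 residues and a minimum of 1.6, and no amino acid sequence is printed. A listed signalling gene is not reported here and was left out of the counts of its list.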

Additional observations from a re-analysis of the deposited data

How the results depend on the processing

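The activating minus inhibitory balance over all 9 members was positive under every alternative run, between 0.30 and 0.76 when libraries were left out, and 0.68 with DESeq2 and 0.59 with limma-voom, which give differences of fitted values. These leave-outs include Cd300e, the scarcest member, and none without it is given. Without Cd300e the balance was -1.16 and -1.14 in DEK replicates 1 and 2, close to the vehicle mean of -1.20, and -0.26 in DEK replicate 3. The mean shift was thus smaller without Cd300e (0.34 against 0.56 with it), and DEK replicate 3 stood furthest from the vehicle mean. Its sign with libraries left out was not tested. In leave-outs added after the data were seen, the CD300 balance ran from 0.60 to 0.87 and the Fc gamma balance from -0.36 (without DEK replicate 3) to 0.90. With the replicate block, which compares pairs of equal number, the genes called went from 0 to 177, signalling genes from 0 to 1, related receptors from 0 to 5 and members from 0 to 1. DESeq2 called 51 genes, 2 of them related receptors. Leaving out 1 library or 1 number without the block gave 0 to 168 genes, 0 to 1 signalling genes, 0 to 8 related receptors and 0 members, and with the block 0 to 641 genes (181 without replicate 1), 0 to 1 signalling genes, 0 to 15 related receptors and 0 to 1 members. The cause was not tested. Of the 9 members, 5 lay above 0, and 1 to 6 did so when libraries were left out. Without vehicle replicate 3, Fcgr1, Fcgr4 and Cd300lf differed by 1.38, 2.19 and 1.58 on the log2 scale, and without DEK replicate 3 by -0.69, -1.45 and -1.74. Cd300ld ran from -0.70 to 1.23 and Cd300lb from -0.43 to 0.07. With 3 libraries a group and 14 to 151 reads, Cd300e has the least precise levels.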
